A study of Homo sapiens with 12 samples.

Results

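Apolipoproteins are the proteins that hold plasma lipids in soluble particles, and the liver is the main source of most of them. The 10 genes described here encode 8 secreted apolipoproteins (APOA1, APOA2, APOB, APOC1, APOC3, APOE, APOH and APOM) and 2 proteins of the endoplasmic reticulum that load lipid onto apolipoprotein B (MTTP and TM6SF2). They were taken by name, through GENCODE 29 symbols, from a table of 59191 features, of which 15352 were expressed well enough to be tested, all 10 among them. Their levels were measured by RNA sequencing in Huh7, an established human hepatocellular carcinoma line.

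The 12 libraries form 4 groups of 3. Cells of the combination group received disulfiram and thalidomide together, those of the other treated groups received disulfiram alone or thalidomide alone, and the control libraries carry the name of the solvent DMSO in the deposited table. Disulfiram is known as an aldehyde dehydrogenase inhibitor, and thalidomide as a ligand of cereblon. All groups are cultures of this line alone, and no genotype is named for any of them. The sources used here give no doses with units, no time of exposure and no preparation of these libraries, since the protocol in the labels describes another kind of material. Whether the libraries of a group come from separate cultures is stated nowhere, and a p-value therefore covers only their spread. Since the culture was measured in bulk, fewer cells making a transcript and less transcript per cell cannot be told apart.

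A very low density lipoprotein starts in the endoplasmic reticulum, where the MTTP protein, held in solution by its partner protein disulfide isomerase (gene P4HB), transfers triglyceride to apolipoprotein B as it is made. TM6SF2 is needed to fill the particle further, and apolipoproteins C and E join it or exchange onto it later. High density lipoprotein is built outside the cell on apolipoproteins A1 and A2, which receive lipid through the transporter ABCA1, and carries apolipoprotein M. The nuclear receptor HNF4A is a known activator of many of these genes in liver.

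The cells had the markers of hepatocytes and of hepatoma. All 8 hepatocyte markers had a mean TPM (a share of all transcripts scaled by gene length) of at least 1 in some group, as did AFP, GPC3 and IGF2, whereas DLK1 was at or near 0. Summed over the 8 hepatocyte markers, levels ran from 2161 to 2892 TPM in combination libraries, from 2108 to 2414 TPM in disulfiram libraries, from 2916 to 4831 TPM in thalidomide libraries and from 2499 to 4485 TPM in control libraries. Their part in the results below was not tested. Of 5 markers of intestine, the other tissue that makes apolipoprotein B particles, VIL1 and CDX2 were present, SI was listed at 0 in all 12 libraries, and FABP2 and LCT were at or near 0. Of 6 leukocyte markers, CD14 was the only one with a mean of at least 1 TPM, and PTPRC, CD163, CD3E and MS4A1 were at or near 0. Their sum was 78.1 to 81.0 TPM in combination, 50.2 to 120 TPM in disulfiram, 115 to 164 TPM in thalidomide and 99.8 to 170 TPM in control libraries. Among 4 endothelial markers only PECAM1 reached that mean, and the sum was 3.83 to 5.43 TPM in combination, 3.52 to 7.42 TPM in disulfiram, 1.66 to 2.51 TPM in thalidomide and 0.790 to 1.55 TPM in control libraries. For 5 fibroblast and stellate markers, 4 of which reached it, the sum was 41.5 to 56.4 TPM in combination, 40.3 to 58.5 TPM in disulfiram, 36.0 to 61.9 TPM in thalidomide and 37.9 to 49.3 TPM in control libraries. Neither of 2 astrocyte markers reached it.

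The read depth is unknown, because TPM values keep no counts. Between 13693 and 15038 genes per library had at least 1 TPM. The second combination library and the second disulfiram library differed from their groups in proportion to the GC content of genes, with a Spearman's rho of 0.66 in that combination library and 0.60 in that disulfiram library. In the other 10 libraries rho ran from -0.59 to 0.48. Group differences went with GC content too, at rho -0.44 for the combination against control and -0.49 for the combination against thalidomide over 15042 genes, at -0.63 for the combination against disulfiram and -0.62 for the interaction of the drugs, and at 0.20 for thalidomide and 0.00 for disulfiram against control. Genes are not independent replicates, so these values carry no test. The GC content of the longest transcript was 68.5% for APOE, 62.7% for APOA1, 60.4% for APOC3, 58.9% for TM6SF2, 55.4% for APOC1, 54.2% for APOA2, 50.6% for APOM, 43.5% for APOB, 42.9% for APOH and 42.1% for MTTP.

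Sequences before RefSeq starts (GRCh38.p14) were at hand for 7 of the 10 genes, APOA1, APOB and APOC3 being the exceptions. Shown are the 150 bases before a RefSeq start, 5′ to 3′ on the gene's strand. They belong to 3 apolipoprotein genes that were lower in combination than in thalidomide libraries and to MTTP, which did not pass that test. They lie at chr1:161223629-161223778 (minus strand) for APOA2, chr19:44905646-44905795 (plus strand) for the first of 3 APOE starts, chr6:31655744-31655893 (plus strand) for APOM and chr4:99563980-99564129 (plus strand) for the first of 2 MTTP starts. The APOM and MTTP stretches lie wholly inside the annotated spans of these genes, which begin at chr6:31652416 and chr4:99563761. Each therefore precedes a start within the gene, and which starts these cells use was not tested. Capitals mark a CCAAT box read on the other strand.
APOA2: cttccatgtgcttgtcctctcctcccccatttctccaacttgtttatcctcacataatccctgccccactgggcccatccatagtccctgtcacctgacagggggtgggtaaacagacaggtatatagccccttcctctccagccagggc
APOE: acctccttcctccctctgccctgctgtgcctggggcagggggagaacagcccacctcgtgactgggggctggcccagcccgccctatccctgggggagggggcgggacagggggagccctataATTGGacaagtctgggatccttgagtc
APOM: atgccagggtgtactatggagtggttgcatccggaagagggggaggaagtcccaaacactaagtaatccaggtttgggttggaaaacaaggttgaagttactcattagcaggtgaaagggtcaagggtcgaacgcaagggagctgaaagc
MTTP: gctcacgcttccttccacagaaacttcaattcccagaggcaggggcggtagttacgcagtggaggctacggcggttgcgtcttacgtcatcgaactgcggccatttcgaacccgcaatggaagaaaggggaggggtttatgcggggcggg
In windows from 250 bases before to 50 bases after each RefSeq start, 4 motifs were searched on both strands. No pair of the matches overlapped. The CCAAT box, found in 34.6% of 35116 RefSeq windows, was present in APOE (first base at position -27 from the start shown and at -202 from another start), in a second MTTP window and in TM6SF2. TATAAA, found in 11.5% of all windows, matched in that second MTTP window alone, on the other strand with its first base at position -227. The HNF4 site CAAAGTCCA (0.384% of all windows) and the sterol response element TCACNCCAC (1.13%) had no match in the windows of the 7 genes, which says only that these letters are not there.

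The 10 genes spanned more than 2 orders of magnitude, and their order hardly differed between groups. APOA2 was highest, with 1563 ± 109 TPM in combination, 1810 ± 165 TPM in disulfiram, 2346 ± 133 TPM in thalidomide and 1852 ± 264 TPM in control libraries (mean ± SD, n = 3 each, as for all means below). APOE and APOC1 came next in all 4 groups, then APOC3 and APOA1. APOA2, APOE and APOC1 together made up 93.3% to 96.5% of the summed level of the 10 genes. That sum was 0.341 ± 0.0128% of all TPM in combination, 0.385 ± 0.0400% in disulfiram, 0.484 ± 0.0327% in thalidomide and 0.416 ± 0.0495% in control libraries. Down to APOA1 the libraries of neighbouring genes in this order did not overlap within a group, except that APOA1 and APOB overlapped in control. The lower places differed between groups. APOB was sixth in thalidomide and control libraries and eighth in combination and disulfiram libraries, below APOH and MTTP, though APOH, MTTP and APOB overlapped with their neighbours in the combination group and MTTP and APOB in the disulfiram group. TM6SF2 was last in every group, with means of 4.94 to 6.21 TPM, and overlapped with APOM except in the thalidomide group.

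**Figure D1:**
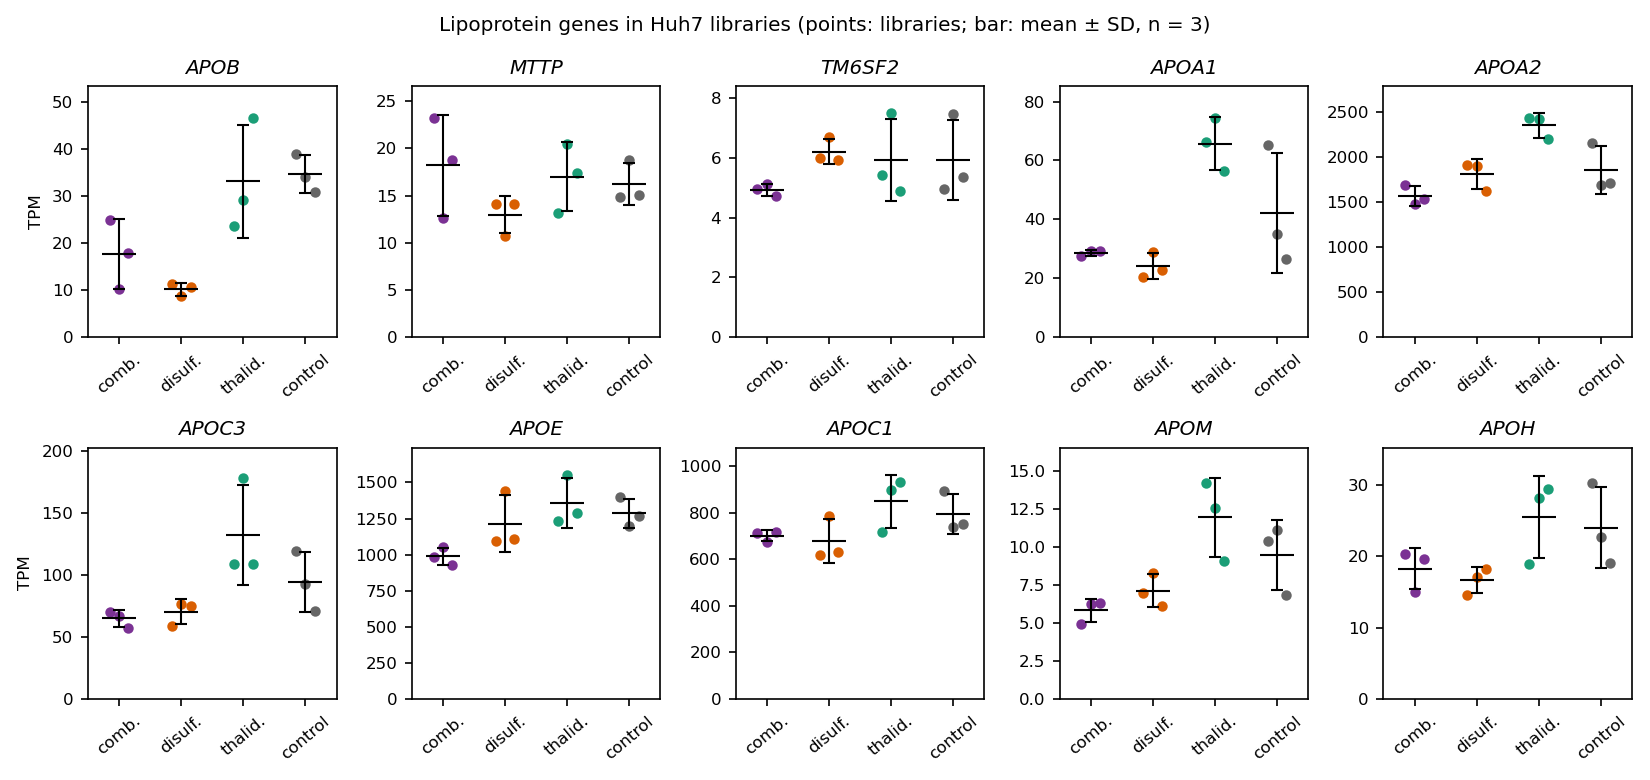
TPM of the 10 genes (vertical axes, from 0) in the combination, disulfiram, thalidomide and control groups, left to right; each point is 1 library and the bar with whiskers is the mean ± SD of 3. APOB lies at 8.67 to 11.3 TPM in disulfiram libraries and at 30.9 to 38.9 TPM in control libraries, and APOA1 at 27.5 to 29.3 TPM in combination and 56.4 to 74.5 TPM in thalidomide libraries.

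APOB was lower with disulfiram alone, and no other gene among the 10 passed the test (limma's two-sided moderated test on log2(TPM + 1), Benjamini-Hochberg adjusted p below 0.05 over 15352 genes). This is 1 of 10, where 4.52% of all tested genes passed in the lower direction. Libraries of disulfiram lay wholly below those of control for APOB, APOH and MTTP, 3 of 10, against 11.4% of all genes. With both drugs, APOB, APOE and APOM were lower than in control libraries, 3 of 10 where 6.7% of all genes were lower. In 6 of 10 (APOA2, APOB, APOC1, APOC3, APOE and APOM) the combination libraries lay wholly below the control libraries, against 12.1% of all genes. For APOA2 and APOC3 the margin was small. The highest combination and lowest control libraries were at 1683 and 1688 TPM for APOA2 and at 70.26 and 71.19 TPM for APOC3. These comparisons share the control libraries and are given side by side only.

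Thalidomide alone called 0 of the 10 and 0% of all genes in limma's test, with 3 of the 10 and 873 of 15352 genes at an unadjusted p below 0.05. APOA2 was the only gene of the 10 whose thalidomide libraries lay wholly above control, where 3.91% of all genes did so. Against thalidomide, the combination was lower in 6 of 10 genes (APOA1, APOA2, APOB, APOC3, APOE and APOM), against 7.24% of all genes, and 6 of 10 did not overlap (APOA1, APOA2, APOC1, APOC3, APOE and APOM), against 10.8%. For APOC1 the highest combination library, at 717.2 TPM, was only just below the lowest thalidomide library, at 717.8 TPM. Between combination and disulfiram 0 of 10 passed, with 0.00651% of all genes passing. There 2 of 10 (APOB and APOE) and 2631 of 15352 genes had an unadjusted p below 0.05, which are similar shares. The interaction term asks whether the drugs together differ from the sum of their log2 differences. It passed for 0 of 10 and for 0% of all genes. At an unadjusted p below 0.05 were 1 of 10 (APOA2) and 1580 of 15352 genes, again similar shares.

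The median log2 difference of the 10 genes was -0.33 for disulfiram against control, 0.09 for thalidomide against control, -0.37 for the combination against control and -0.52 for the combination against thalidomide. Over all tested genes those medians were 0.09, -0.03, 0.20 and 0.22. In disulfiram against control, the combination against control and the combination against thalidomide, each of the 10 lay below the median of all genes. How many genes are called in each direction depends on the scaling of the libraries. For the combination against control, 2823 genes were higher and 1029 lower on TPM as deposited, against 1213 and 2139 after median-of-ratios scaling, which set the median of all genes to 0.00. For disulfiram against control the counts were 1340 and 694 as deposited, against 704 and 1050 after that scaling, and for the combination against thalidomide 3834 and 1112, against 1600 and 2400. With that scaling, 7 of the 10 were lower in combination than in control, where 13.9% of all genes were. Against thalidomide it was 8 of the 10, where 15.6% of all genes were. The share also depends on the filter. Among genes with a mean of at least 5 TPM, unscaled, 10% were lower in combination than in control and 10.4% than in thalidomide. The counts of the 10 were then 3 and 6.

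**Figure D2:**
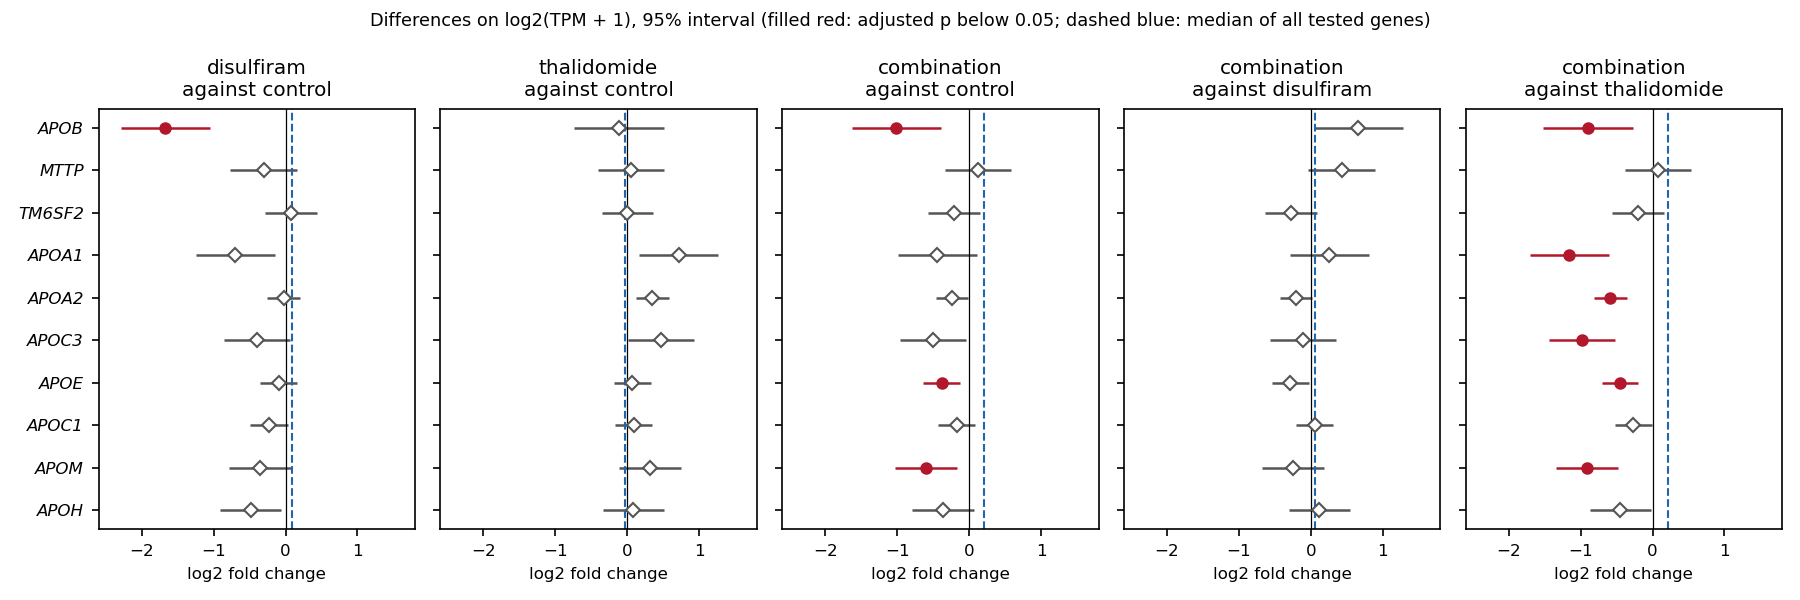
Log2 fold changes on log2(TPM + 1) with 95% intervals for the 10 genes in 5 comparisons, 3 libraries per group; filled red points passed the adjusted threshold, open diamonds did not, and the dashed line is the median of all tested genes. APOB is at -1.67 for disulfiram against control, and 6 filled points lie below 0 for the combination against thalidomide.

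APOB, whose product is the structural protein of very low and low density lipoproteins, showed the largest disulfiram difference of the 10. The gene lies at chr2:21001429-21044073 on the minus strand (hg38, GENCODE 29, as for all gene positions below). It had 24.9, 10.2 and 17.9 TPM in combination libraries, 11.3, 8.67 and 10.6 TPM in disulfiram libraries, 23.5, 29.2 and 46.6 TPM in thalidomide libraries and 38.9, 34.1 and 30.9 TPM in control libraries. All disulfiram and combination libraries were below all control libraries, the second combination library was as low as those of disulfiram, and combination and thalidomide libraries overlapped. The log2 fold change was -1.67 ± 0.28 for disulfiram against control (± SE, adjusted p = 0.00327, 70.6% lower by means), and it passed in all 25 alternative settings. For the combination against control it was -1.01 ± 0.28 (adjusted p = 0.0255, 49% lower). Without the second combination library it was -0.68 (adjusted p = 0.0525). Leaving out the third combination library or any 1 of the control libraries also ended this call, at adjusted p from 0.0509 to 0.0829, as did testing without a filter on low genes (0.0725). Against thalidomide the combination was at -0.90 ± 0.28 (adjusted p = 0.0332), a call lost without the second or the third combination library (adjusted p = 0.0881 and 0.0740) or the second or the third thalidomide library (adjusted p = 0.0572 and 0.108), with no filter (0.0893) and with only the compared groups fitted (0.0811). Thalidomide against control gave -0.11, with a 95% interval from -0.74 to 0.51. The combination stood 0.66 ± 0.28 above disulfiram on this scale (adjusted p = 0.277), so a difference between them did not pass. It did with array weights (0.74, adjusted p = 0.0202), a setting that called 3540 of 15352 genes in this comparison.

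MTTP, the lipid transfer protein itself (chr4:99563761-99623999, plus strand), passed in no comparison with unscaled TPM and equally weighted libraries. Its libraries had 23.3, 12.6 and 18.7 TPM in combination, 14.1, 10.7 and 14.1 TPM in disulfiram, 13.1, 20.5 and 17.4 TPM in thalidomide and 14.9, 18.8 and 15.04 TPM in control. Disulfiram libraries lay just below control libraries without passing the test (log2 fold change -0.30 ± 0.21, adjusted p = 0.388), and the groups otherwise overlapped. For the combination against control the 95% interval ran from -0.34 to 0.59, and the sign turned with scaling or GC correction (-0.10 and -0.25). With array weights the combination passed as higher than disulfiram (0.44, adjusted p = 0.0436), as 3540 of 15352 genes then differed between these groups. The ratio of APOB to MTTP within a library takes out any factor common to both, whatever the scaling. It was 0.943 ± 0.134 in combination, 0.787 ± 0.0310 in disulfiram, 1.96 ± 0.642 in thalidomide and 2.16 ± 0.413 in control libraries. Both disulfiram and combination libraries were wholly below control, each at an exact two-sided permutation p = 0.10, the smallest that 3 against 3 libraries can give (0.21 after adjustment over 15 ratio tests).

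TM6SF2, which acts with MTTP in filling the particle and lies at chr19:19264364-19273391 on the minus strand, had 4.95, 5.14 and 4.73 TPM in combination, 6.0, 6.7 and 5.93 TPM in disulfiram, 5.42, 7.50 and 4.89 TPM in thalidomide and 4.96, 7.46 and 5.36 TPM in control libraries. Combination libraries were below all disulfiram libraries and overlapped with the rest. No comparison passed, and the intervals against control ran from -0.29 to 0.43 for disulfiram and from -0.56 to 0.15 for the combination. After quantile normalization the combination passed as lower than thalidomide (-0.53, adjusted p = 0.0393). Other annotated genes share 46.7% of the exon bases of TM6SF2 and 43.2% of those of APOC1 on the same strand, at levels of 0.220 to 0.500 and 0.160 to 0.340 TPM.

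**Figure D3:**
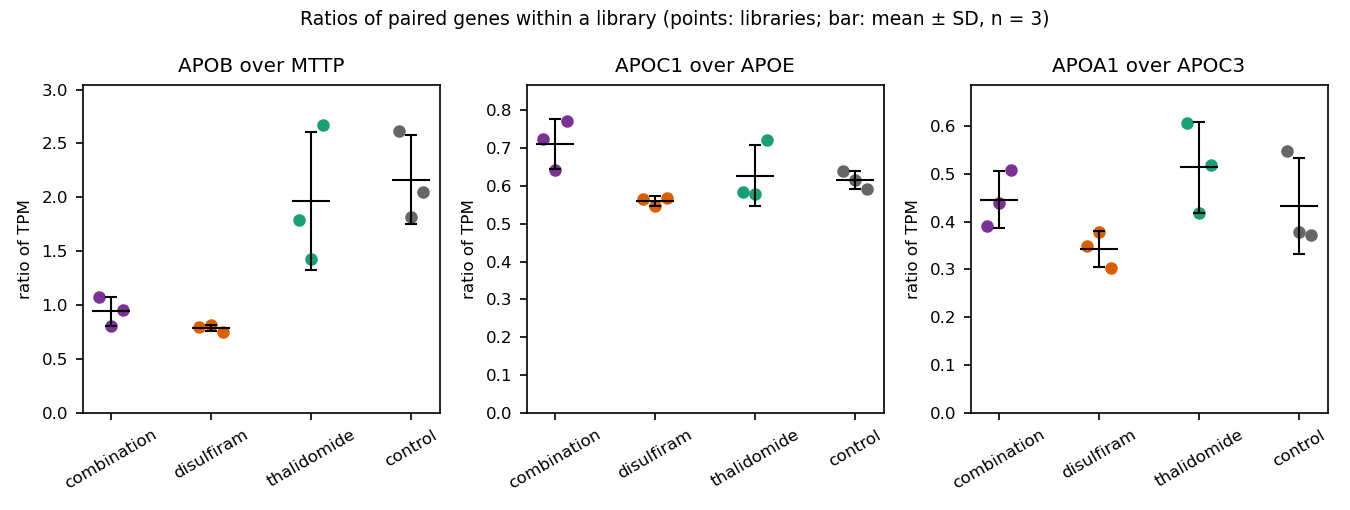
Ratio of TPM within each library for 3 pairs of genes (vertical axes, from 0) in the combination, disulfiram, thalidomide and control groups; points are libraries and bars are mean ± SD of 3. APOB over MTTP is 0.787 ± 0.0310 in disulfiram and 2.16 ± 0.413 in control libraries, while APOC1 over APOE runs from 0.546 to 0.772 over all 12 libraries.

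APOA1, the main protein of high density lipoprotein (chr11:116835751-116837950, minus strand), had 27.5, 29.2 and 29.3 TPM in combination libraries, 20.6, 29.1 and 22.7 TPM in disulfiram libraries, 66.2, 74.5 and 56.4 TPM in thalidomide libraries and 65.3, 35.1 and 26.4 TPM in control libraries. The thalidomide libraries were all above those of combination and disulfiram, and the control libraries spread from the level of one to that of the other. The combination was therefore lower than thalidomide (-1.16 ± 0.25, adjusted p = 0.00746), a call made in all 25 alternatives. Against control, disulfiram (-0.70 ± 0.25, adjusted p = 0.0921), thalidomide (0.72 ± 0.25, adjusted p = 0.761) and the combination (-0.44 ± 0.25, adjusted p = 0.199) did not pass. These calls turned on single control libraries and on the processing. Without the first control library thalidomide passed as higher (1.08, adjusted p = 0.0409), and without the third control library disulfiram passed as lower (-0.98, adjusted p = 0.0246). With all libraries kept, disulfiram also passed as lower after GC correction (-0.78, adjusted p = 0.0388, and 0.0453 with the replicate block added) and with array weights (-0.68, adjusted p = 0.0406).

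APOA2, another major protein of the same particle (chr1:161222292-161223631, minus strand), was also lower in the combination than with thalidomide. Its libraries had 1683, 1471 and 1534 TPM in combination, 1908, 1902 and 1619 TPM in disulfiram, 2429, 2417 and 2192 TPM in thalidomide and 2157, 1688 and 1711 TPM in control. Thalidomide libraries were the highest of all 4 groups with no overlap, and the combination libraries lay below thalidomide libraries and just below control libraries. The combination was lower than thalidomide by 33.4% (log2 fold change -0.59 ± 0.10, adjusted p = 0.00267, called in all 25 alternatives). Thalidomide against control gave 0.35 ± 0.10 (adjusted p = 0.690) and the combination against control -0.24 ± 0.10 (adjusted p = 0.103), and neither passed. The combination did pass as lower than control after median-of-ratios scaling (-0.48, adjusted p = 0.0192) or quantile normalization (-0.32, adjusted p = 0.0163), with array weights (-0.21, adjusted p = 0.0386) and with the replicate block and GC correction (-0.28, adjusted p = 0.0358). With disulfiram alone APOA2 differed from control by -0.03, with an interval from -0.25 to 0.20.

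APOM, which carries sphingosine 1-phosphate on high density lipoprotein (chr6:31652416-31658210, plus strand), was among the least abundant of the 10. It had 4.91, 6.23 and 6.28 TPM in combination, 6.93, 8.27 and 6.12 TPM in disulfiram, 14.2, 12.5 and 9.09 TPM in thalidomide and 10.4, 11.1 and 6.81 TPM in control libraries. The combination libraries were below those of control and thalidomide. APOM was lower in combination than in thalidomide (-0.91 ± 0.20, adjusted p = 0.00733, called in all 25 alternatives) and than in control (-0.60 ± 0.20, adjusted p = 0.0451). The second of these calls was lost without the first or the third combination library (adjusted p = 0.155 and 0.0907), the first or second control library (0.133 and 0.136), the first or the third disulfiram library (0.0549 and 0.0528) or the second thalidomide library (0.0558). It was also lost with a pseudocount of 5 (0.0512), with no filter (0.0995) and with only the compared groups fitted (0.0577). Exons of BAG6, a protein quality-control gene read from the opposite strand at 126 to 163 TPM, cover 136 bases or 8.19% of the exon bases of APOM. Whether counting used strand is not known, so the level of APOM is uncertain. BAG6 differed between combination and control by 0.04 ± 0.09 (adjusted p = 0.751). Against thalidomide the combination was at -0.13 ± 0.09 for BAG6 (adjusted p = 0.296), the same direction as for APOM. The BAG6 libraries of disulfiram and of thalidomide lay wholly above control (0.18 and 0.17), and neither difference passed. The part of BAG6 in the APOM values was not tested.

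APOC3, which inhibits lipoprotein lipase and slows the clearance of remnants, lies beside APOA1, at chr11:116829706-116833072 on the plus strand. Like APOA1, it was lower in combination than in thalidomide libraries. It had 70.3, 66.8 and 57.6 TPM in combination, 59.0, 76.9 and 75.1 TPM in disulfiram, 109, 179 and 109 TPM in thalidomide and 119, 92.6 and 71.2 TPM in control libraries. Combination libraries were below all thalidomide libraries and just below the lowest control library. The difference was -0.98 ± 0.21 against thalidomide (adjusted p = 0.00713, called in all 25 alternatives) and -0.51 ± 0.21 against control (adjusted p = 0.0926). The second of these passed after median-of-ratios scaling (-0.74, adjusted p = 0.0268) and with array weights (-0.59, adjusted p = 0.00802). The ratio of APOA1 to APOC3 was 0.446 ± 0.0591 in combination, 0.343 ± 0.0380 in disulfiram, 0.514 ± 0.0951 in thalidomide and 0.433 ± 0.10 in control libraries. In that ratio the combination was above disulfiram without overlap (exact permutation p = 0.10, adjusted 0.21), while the other 4 comparisons overlapped.

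APOE, whose product is the ligand through which cells take up remnants, lies at chr19:44905754-44909393 on the plus strand. It had 985, 1049 and 930 TPM in combination libraries, 1091, 1441 and 1106 TPM in disulfiram libraries, 1230, 1553 and 1289 TPM in thalidomide libraries and 1397, 1199 and 1268 TPM in control libraries. All combination libraries were below all others. The sequence shown before its first start was the only one of the 4 printed with a CCAAT box. APOE was lower in combination than in control by 23.3% (-0.38 ± 0.12, adjusted p = 0.0357) and than in thalidomide by 27.2% (-0.45 ± 0.12, adjusted p = 0.0154). Of the 10 genes it has the highest GC content, and after correction for GC both calls were lost (-0.31 with adjusted p = 0.0555 against control, and -0.31 with adjusted p = 0.0531 against thalidomide). The call against control was also lost with no filter (adjusted p = 0.0919) and without the first or the third combination library (adjusted p = 0.0966 and 0.121) or the first or the third control library (0.118 and 0.0785), and that against thalidomide without the third combination library (0.0636) or the second thalidomide library (0.0520). The combination against disulfiram gave -0.28 ± 0.12 (adjusted p = 0.274), which did not pass. It did with array weights (-0.27, adjusted p = 0.0337), where 3540 of 15352 genes passed. Macrophages are another source of APOE in tissue, and the cultures here were of Huh7 alone. PTPRC and CD163 were at or near 0, while CD14 was at 79.3 TPM in combination and 132 TPM in control libraries. In limma's test CD14 did not pass for the combination against control (adjusted p = 0.074) and passed as lower against thalidomide (adjusted p = 0.0367).

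APOC1, which inhibits cholesteryl ester transfer protein and is encoded next to APOE at chr19:44914247-44919349 on the plus strand, had 713, 673 and 717 TPM in combination, 618, 787 and 629 TPM in disulfiram, 718, 898 and 930 TPM in thalidomide and 893, 739 and 750 TPM in control libraries. Combination libraries lay just below those of thalidomide and control. No comparison passed (-0.27 ± 0.12 against thalidomide, adjusted p = 0.101, and -0.17 ± 0.12 for the combination against control, adjusted p = 0.276). Without the first thalidomide library the combination passed as lower than thalidomide (-0.38, adjusted p = 0.0454). It did so too after median-of-ratios scaling (-0.53, adjusted p = 0.0124) and with array weights (-0.25, adjusted p = 0.0385). Against control, the combination passed after that scaling (-0.41, adjusted p = 0.0416). With array weights disulfiram reached the threshold as lower (-0.27), at an adjusted p that rounds to 0.05 itself. The ratio of APOC1 to APOE was 0.712 ± 0.0660 in combination and 0.560 ± 0.0125 in disulfiram libraries, against 0.616 ± 0.0240 in control libraries. It was wholly above control with the combination and wholly below control with disulfiram, each at exact permutation p = 0.10 and adjusted 0.21.

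APOH, the phospholipid-binding plasma protein also called beta-2 glycoprotein I (chr17:66212033-66256525, minus strand), had 20.3, 14.9 and 19.6 TPM in combination, 14.6, 17.1 and 18.2 TPM in disulfiram, 19.0, 28.2 and 29.5 TPM in thalidomide and 30.3, 22.7 and 19.1 TPM in control libraries. Disulfiram libraries were below control libraries, and the combination libraries overlapped with all groups. It passed in no comparison with unscaled TPM and all libraries (-0.48 ± 0.20 for disulfiram against control, adjusted p = 0.128, and -0.45 ± 0.20 for the combination against thalidomide, adjusted p = 0.0960). Without the first thalidomide library the second of these passed (-0.64, adjusted p = 0.0434). With all libraries kept it passed after median-of-ratios scaling (-0.70, adjusted p = 0.0137), quantile normalization (-0.66, adjusted p = 0.0208) and GC correction (-0.84, adjusted p = 0.00605, and 0.0135 with the replicate block added). Disulfiram passed as lower than control after median-of-ratios scaling (-0.60, adjusted p = 0.0438) and GC correction (-0.56, adjusted p = 0.0444). The combination passed as lower than control after the same scaling (-0.59, adjusted p = 0.0324) and GC correction (-0.70, adjusted p = 0.0155, and 0.0293 with the block).

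Over the 12 libraries, the genes with a mean of at least 5 TPM whose log2 levels ran closest to APOB were HINT1, a nucleotide hydrolase (Pearson's r = 0.99), ANKRD1, a stress-responsive ankyrin repeat protein (0.98), RPN2, a subunit of the oligosaccharyltransferase (0.97), and MATN3, a matrix protein (0.96), out of 9669 genes compared. Among the other 9 genes described, APOH came closest (0.84, at place 162) and TM6SF2 was farthest (-0.13). These points share 4 groups of 3 libraries, so the values describe the pattern of group levels and carry no test. Pearson's r does not measure the size of a difference. Mean levels in control and disulfiram libraries were 390 and 318 TPM for HINT1 and 177 and 80.2 TPM for ANKRD1. They were 343 and 230 TPM for RPN2, 40.4 and 25.5 TPM for MATN3, and 34.6 and 10.2 TPM for APOB.

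The 8 lists of related genes cover the pathway around these 10. They are given by their counts beside the share of all genes called, which was 4.52% lower and 8.73% higher for disulfiram against control, 6.7% and 18.4% for the combination against control, and 7.24% and 25% for the combination against thalidomide. Thalidomide against control called no gene of any list. The counts below are for disulfiram against control and then for the combination against thalidomide.

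For lipidation and export of the particle, 4 of 21 tested genes were lower and 1 higher with disulfiram, and 4 were lower and 7 higher in the combination against thalidomide (median log2 differences 0.01 and 0.26). P4HB, the partner subunit of the MTTP complex, had 530, 554 and 505 TPM in combination, 538, 691 and 585 TPM in disulfiram, 783, 739 and 775 TPM in thalidomide and 817, 823 and 755 TPM in control libraries. It fell with disulfiram (-0.41 ± 0.09, adjusted p = 0.00994) and in the combination against control (-0.59 ± 0.09, adjusted p = 0.00152), and all libraries with disulfiram were below all without it. PDIA3, a disulfide isomerase of the same compartment, fell as well (-0.55 ± 0.09 with disulfiram, adjusted p = 0.00200). CIDEC, a protein that enlarges lipid droplets, rose to 26.7 ± 3.99 TPM with disulfiram, against 5.43 ± 3.28 TPM in control libraries (2.27 ± 0.36, adjusted p = 0.00213).

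Of 20 tested genes of lipid supply, 3 were lower and 1 higher with disulfiram, and 6 lower and 4 higher in the combination against thalidomide (medians 0.04 and -0.15). GPAM, which starts glycerolipid synthesis, was at 1.13 ± 0.145 TPM with disulfiram and 5.55 ± 1.16 TPM in control libraries (-1.60 ± 0.22, adjusted p = 0.00108). PNPLA3, a lipid droplet lipase, fell too (-1.01 ± 0.24, adjusted p = 0.0184), and PLIN2, which coats lipid droplets, rose (0.67 ± 0.18, adjusted p = 0.0317).

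High density lipoprotein lipidation and remodelling had 2 of 10 tested genes lower and 0 higher with disulfiram, and likewise 2 lower and 0 higher in the combination against thalidomide (medians -0.18 and -0.02). The 2 with disulfiram were ABCG1, a cholesterol exporter, at 4.11 ± 1.35 against 8.76 ± 0.341 TPM in control (-0.97 ± 0.18, adjusted p = 0.00562), and SCARB1, the receptor that takes up cholesteryl ester, at 89.1 ± 13.5 against 156 ± 20.4 TPM in control (-0.80 ± 0.12, adjusted p = 0.00124). ABCA1 did not pass (-0.34 ± 0.19, adjusted p = 0.260).

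Receptors and clearance had 3 of 12 tested genes lower and 0 higher with disulfiram, and 4 lower and 1 higher in the combination against thalidomide (medians -0.12 and -0.16). SDC1, a heparan sulfate proteoglycan that binds remnants, fell with disulfiram by 0.73 ± 0.12 on the log2 scale (adjusted p = 0.00278).

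Of 5 tested lipase regulators, 1 was lower and 1 higher with disulfiram, and 2 lower and 1 higher in the combination against thalidomide (medians -0.43 and -0.17). ANGPTL4, an inhibitor of lipoprotein lipase, rose with disulfiram (1.37 ± 0.37, adjusted p = 0.0296), and PCSK6, a proprotein convertase, fell (-0.54 ± 0.16, adjusted p = 0.0484). Of 5 tested genes among the other apolipoproteins, 3 rose and 0 fell with disulfiram, and 2 rose and 1 fell in the combination against thalidomide (medians 0.75 and 0.53). The 3 were APOA4, an intestinal apolipoprotein, at 5.10 ± 1.38 TPM against 1.91 ± 0.477 TPM in control libraries (adjusted p = 0.0145), APOL2, at 35.8 ± 5.14 TPM against 20.2 ± 3.29 TPM in control libraries (adjusted p = 0.00190), and APOL1, a trypanosome lytic factor, at 1.44 ± 0.403 TPM against 0.443 ± 0.123 TPM in control libraries (adjusted p = 0.0293). APOC2 was the 1 that fell in the combination against thalidomide, at 311 ± 3.42 against 434 ± 9.20 TPM (-0.479 ± 0.105, adjusted p = 0.00773). For disulfiram against control APOC2 was at 311 ± 43.5 against 370 ± 49.6 TPM (-0.25, adjusted p = 0.1425), which did not pass. With unscaled TPM and all libraries equally weighted, none of the 10 genes described above passed as higher in any of the 5 comparisons.

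Transcription factors of apolipoprotein genes had 4 of 28 lower and 1 higher with disulfiram, and 8 lower and 2 higher in the combination against thalidomide (medians 0.04 and -0.14). HNF4A had 53.2, 63.3 and 63.8 TPM in combination, 58.4, 60.2 and 65.8 TPM in disulfiram, 50.1, 61.3 and 50.9 TPM in thalidomide and 57.0, 58.4 and 53.2 TPM in control libraries. Its difference between disulfiram and control was 0.13 ± 0.10 (adjusted p = 0.460), with the disulfiram libraries above the control libraries by a small margin. SREBF1, the sterol regulatory factor of lipid synthesis, was at 76.8 ± 15.4 TPM with disulfiram and 159 ± 5.59 TPM in control libraries (-1.06 ± 0.13, adjusted p = 0.000505), and FOXA1, a pioneer factor of liver genes, at 13.6 ± 0.341 TPM with disulfiram and 26.5 ± 3.32 TPM in control libraries (-0.90 ± 0.10, adjusted p = 0.000324). CREB3L3, a liver factor held in the endoplasmic reticulum membrane that in mouse activates Apoa4, was higher with disulfiram (0.87 ± 0.16, adjusted p = 0.00503).

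Among 16 tested genes of other secreted hepatocyte proteins, which carry no lipoprotein lipid, 5 were lower, 0 higher and 11 did not pass with disulfiram, and 9 were lower and 0 higher in the combination against thalidomide (medians -0.61 and -0.80). AHSG, the plasma glycoprotein fetuin A, was at 8.65 ± 2.36 TPM with disulfiram, against 28.5 ± 20.1 TPM in control libraries (-1.43 ± 0.38, adjusted p = 0.0275). ITIH2, a heavy chain of inter-alpha-trypsin inhibitor, was at 15.9 ± 1.78 TPM with disulfiram and 42.9 ± 21.3 TPM in control (-1.29 ± 0.25, adjusted p = 0.00648). TTR, the thyroxine carrier, was at 45.9 ± 8.22 TPM with disulfiram and 85.0 ± 26.0 TPM in control (-0.85 ± 0.21, adjusted p = 0.0196). The first control library raised these control means. The control libraries had 51.5, 19.4 and 14.5 TPM for AHSG, 67.5, 30.7 and 30.6 TPM for ITIH2, and 115, 67.3 and 72.8 TPM for TTR.

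**Figure D4:**
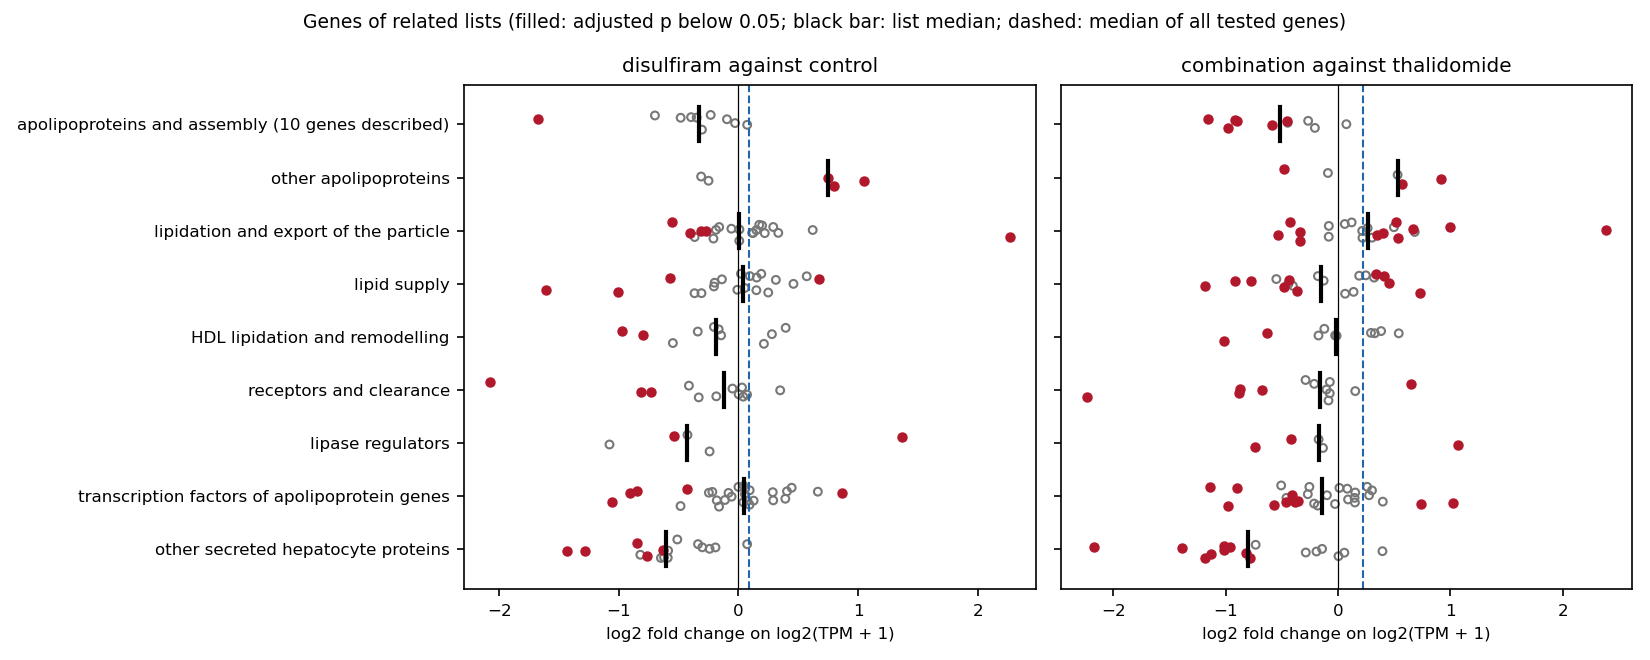
Log2 fold changes of the tested genes of the 10 described and of 8 related lists (rows), for disulfiram against control (left) and the combination against thalidomide (right); filled points passed the adjusted threshold, the black bar is the list median and the dashed line the median of all tested genes. The 10 genes have medians of -0.33 and -0.52, and the other secreted hepatocyte proteins -0.61 and -0.80.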

How the data were processed

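RNA sequencing of 12 Huh7 libraries, 3 per group, was analysed from a table of TPM per gene computed by the authors. Per the submitters' processing notes the tools included HISAT2 2.0 and StringTie 1.3.0, with build hg38. The annotation, filters, strandedness and depth are not known, so no counting interval can be given. Symbols and gene positions came from GENCODE 29, which held 58611 of 58884 Ensembl identifiers.

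Genes with at least 1 TPM in at least 3 libraries were tested on log2(TPM + 1) with limma 3.58.1 (R 4.3.3), mean-variance trend, all 12 libraries in 1 fit, two-sided, Benjamini-Hochberg over 15352 genes, threshold 0.05. The pseudocount understates differences of low genes. Ratios were compared by exact permutation (scipy 1.17.1). The fit was also run on simulated data with noise drawn independently for each gene and library. That noise had no relation to GC content, unlike these libraries, so the run does not bear on that pattern.

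Genes named from each of the 8 lists are the up to 3 largest changes for disulfiram against control among those past the threshold whose libraries did not overlap; HNF4A and ABCA1 were always named, as were the 4 genes closest to APOB. Some genes that this rule names are not reported here. The 10 genes and the lists were chosen with earlier results of these data known. In all, 25 alternatives were run: pseudocounts of 0.1 and 5, no filter or a mean of at least 5 TPM, median-of-ratios, quantile and GC corrections, leaving out mitochondrial genes, fitting only the compared groups, array weights, a replicate block, and leaving out libraries.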

Additional observations from a re-analysis of the deposited data

Results flagged for a closer look

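APOA2 and APOC3 drew attention because all 3 thalidomide libraries were above the mean of the control libraries while all 3 combination libraries were below the mean of the disulfiram libraries. The 2 genes were picked from the 10 for that pattern, which is a description. For APOC3 the margin was negligible, with a highest combination library of 70.26 TPM against a disulfiram mean of 70.34 TPM, and combination and disulfiram libraries overlapped for both genes. Neither difference passed on its own for thalidomide against control or for the combination against disulfiram (-0.21, adjusted p = 0.308, for APOA2 and -0.11, adjusted p = 0.797, for APOC3 in the second of these, in limma's test). The interaction term was -0.56 ± 0.15 for APOA2 and -0.58 ± 0.30 for APOC3 on the log2 scale. With unadjusted p = 0.00239 and 0.0744 in limma's test, both had an adjusted p = 0.466 over 15352 genes, so neither passed. Over all genes the interaction term went with GC content (rho -0.62), and after GC correction it was -0.53 for APOA2 and -0.47 for APOC3.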

How the results depend on the processing

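The depth behind these TPM values is unknown, and 3 libraries per group limit the precision. Of 1298 recomputed results, 1196 kept their direction and their side of the threshold, 30 newly passed it, 35 no longer did and 37 changed sign, and the cause was not tested.

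Counts among the 10 genes were 1 for disulfiram against control, 3 for the combination against control, 6 for the combination against thalidomide and 0 otherwise. For disulfiram against control, median-of-ratios scaling and the replicate block with GC correction gave 2, and GC correction and array weights gave 3. Over all genes these settings called 1754, 2684, 2944 and 3779. With array weights the count includes APOC1, whose adjusted p rounds to the threshold itself. For the combination against control they were 0 with no filter, 7 with median-of-ratios scaling and 5 with array weights. In these settings the counts over all genes were 2658, 3352 and 8631. Array weights gave 3 for the combination against disulfiram, a setting that called 3540 of all 15352 genes there. Leaving out 1 library gave 1 to 2 for disulfiram against control (2 without the third control library), 0 to 1 for thalidomide against control (1 without the first control library), 0 to 3 for the combination against control (0 without the third combination or the first control library), 4 to 8 for the combination against thalidomide (8 without the first thalidomide library), and 0 to 0 for the combination against disulfiram and for the interaction.

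With array weights, counts over all genes were 3779 for disulfiram against control (2034 on TPM as deposited), 8631 for the combination against control (3852), 3540 against disulfiram (1) and 7845 against thalidomide (4946). Removing the second disulfiram and second combination libraries gave 5850 for the combination against control and 1 each for thalidomide against control and the interaction. For thalidomide against control a mean of at least 5 TPM gave 1 and the compared groups alone 3. For the combination against disulfiram no filter gave 5, and a mean of at least 5 TPM, the compared groups alone and the replicate block gave 0. For the interaction no filter gave 3, and a pseudocount of 0.1, median-of-ratios, quantile, GC correction, array weights and the block with GC correction gave 1. Leaving out 1 library gave 1173 to 2190, 0 to 25, 1426 to 5085, 0 to 54, 2174 to 5844 and 0 to 1 genes in that order for disulfiram, thalidomide and both drugs against control, both drugs against disulfiram and against thalidomide, and the interaction. The lowest counts for both drugs against control and against thalidomide came without the third combination library, and the 25 without the first control library.

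No sign change touched a called value. For disulfiram against control TM6SF2 turned to -0.035 with median-of-ratios, -0.057 with quantile scaling, -0.019 with GC correction with or without the block and -0.023 with array weights. For thalidomide against control it turned to -0.012 with GC correction, with or without the block, and -0.056 with array weights, and APOE turned to -0.001 with GC correction, with or without the block. MTTP turned to -0.100 with median-of-ratios, -0.072 with quantile scaling and -0.247 with GC correction, with or without the block, for the combination against control, and to -0.178, -0.152 and -0.356 for the combination against thalidomide. For the combination against disulfiram APOC1 turned to -0.054 with median-of-ratios and APOH to -0.139 with GC correction, with or without the block. With 1 library left out, values that changed sign ran from -0.090 to 0.087 for APOA2 and from -0.026 to 0.226 for TM6SF2 with disulfiram against control. With thalidomide against control they ran from -0.383 to 0.095 for APOB, -0.030 to 0.138 for APOE, -0.062 to 0.277 for APOH, -0.087 to 0.215 for MTTP and -0.155 to 0.154 for TM6SF2. MTTP ran from -0.063 to 0.352 for the combination against control and from -0.114 to 0.302 against thalidomide, and APOC1 from -0.005 to 0.169 for the combination against disulfiram.

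Same-numbered libraries of different groups did not deviate together throughout (correlations from -0.15 to 0.37), so the numbers were not taken to pair them. With the replicate number as a block, 1786 genes were called for disulfiram against control, 3584 for the combination against control and 4632 for the combination against thalidomide, and the same 1, 3 and 6 of the 10 genes passed. Not every library correlated best with its own number.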
